A study of Homo sapiens with 6 samples.

Results

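The fibrillar collagens described here are 7 genes, COL1A1, COL1A2, COL3A1, COL5A1, COL5A2, COL11A1 and COL27A1. They were taken by symbol from a table of 60835 distinct gene symbols, 1 value per symbol and library. The rule uses no measured value, but the family and the related lists below were chosen with earlier results of these data known. Counts of members called beside those of all genes are therefore descriptions, not a test of the family. All 7 passed the filter on low counts, COL1A2 only just, with 4 to 19 reads per library. All libraries came from a SMAD4 knockout of PANC-1, an established human cell line from an epithelioid carcinoma of the pancreas. SMAD4 was put back by transfection, either wild type (WT) or with lysine in place of an arginine (R272K). Polyadenylated RNA was sequenced on day 3, with 3 libraries per group. The knockout background is shared by both groups. No knockout library without added SMAD4 was analysed here, so every difference is between the 2 transfected groups. Nothing in the labels says whether the replicates were separate cultures or whether the knockout line is a single clone, so the p-values cover the spread among these 6 libraries alone, which may be technical.

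Fibrillar collagens are the rod-like proteins that assemble into the cross-striated fibrils of connective tissue. Each molecule is a triple helix of 3 chains, made of repeats of glycine followed by any 2 residues, because only glycine fits at the centre of the helix. Type I collagen is normally built from COL1A1 and COL1A2 chains, and type V, which starts fibril assembly and limits fibril width, from COL5A1 and COL5A2. COL3A1 forms type III collagen on its own, COL11A1 belongs to type XI, a relative of type V, and COL27A1 to type XXVII of cartilage. In pancreatic carcinoma most fibrillar collagen is known to come from fibroblasts and stellate cells, and tumour cells can make some as well. TGF-β, whose signal SMAD4 carries to the nucleus with its partner SMADs, is a well known inducer of type I collagen. The series concerns arginine methylation of SMAD4. Its 2 groups differ in the residue at this position and, as given below, in the amount of SMAD4 transcript.

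The repeat is visible in the genes themselves, and the exons below show the unit that the whole family shares. In GENCODE release 29, exons of exactly 54 bp made up between 41.2% (COL1A1) and 54.1% (COL27A1) of the coding exons of the 7 genes. They made up 0.657% of the 197898 coding exons of all protein-coding genes. Exons whose length is a multiple of 9 bp, and which can therefore hold whole glycine-X-Y triplets, were 75.8% to 88.5% of the members' coding exons against 14.3% overall. The genes have 51 to 67 coding exons each. The first 54-bp exon that repeats a glycine codon and then 2 others throughout is given for 3 members, 5′ to 3′ on the coding strand, with the glycine codons that open its 6 triplets, of 18 codons in all, in capitals. A glycine codon elsewhere in a triplet is left in lower case. The exons are exon 15 of COL5A1 (chr9:134753850-134753903, plus strand), exon 15 of COL11A1 (chr1:103008463-103008516, minus strand) and exon 4 of COL27A1 (chr9:114178291-114178344, plus strand), all on GRCh38.
COL5A1: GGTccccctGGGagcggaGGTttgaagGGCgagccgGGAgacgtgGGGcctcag
COL11A1: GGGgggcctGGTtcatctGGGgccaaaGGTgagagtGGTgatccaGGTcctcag
COL27A1: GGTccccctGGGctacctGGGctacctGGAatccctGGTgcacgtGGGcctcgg
In the letters between the capitals, ccc and cct are codons for proline, which is frequent in collagen triplets and, at some positions, hydroxylated. Of the 54-bp exons, 29 of 29 in COL5A1, 31 of 31 in COL11A1 and 32 of 33 in COL27A1 had this form.

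**Figure D1:**
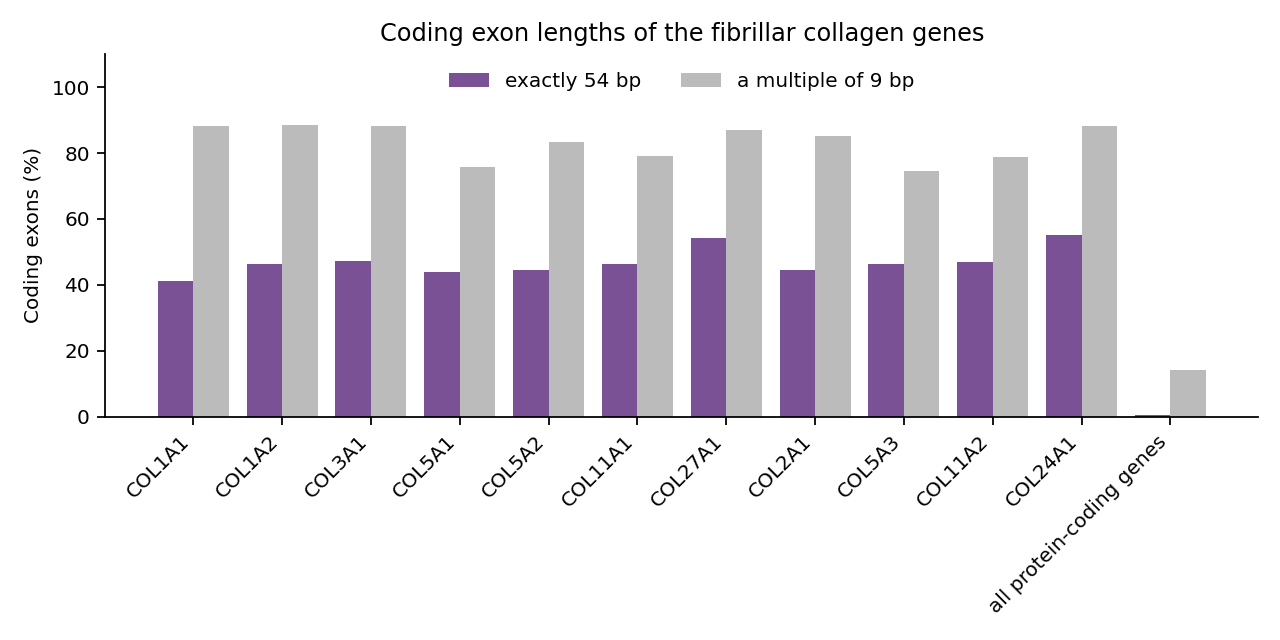
Share of coding exons (%) that are exactly 54 bp long (purple) or a multiple of 9 bp long (grey) in the 11 fibrillar collagen genes and in all protein-coding genes, in the transcript with the longest coding sequence of each gene. Every collagen bar for 54 bp lies at or above 41.2%, and the bar for all protein-coding genes is at 0.657%.

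Library totals lay between 14776148 and 17706201 counts. WT replicate 1 was the outermost library, with a score of -31.3 on principal component 1 (32.2% of the variance), the other 5 scoring from -9.56 to 15.6. Longer genes had relatively lower values in it (Spearman's rho -0.41, taken over genes, which are no replicates). The members are long, at 1.57 to 2.42 times the median length of tested genes, and in all 7 of them WT replicate 1 was the lowest WT library. Fold changes of the members are therefore given with and without it, as are those called in the related lists. Leaving it out moved the share of all genes tested that were called from 0.685% to 2.94% higher and from 0.528% to 2.42% lower. SMAD4 transcript itself was lower with R272K, at 40.6, 45.7 and 43.6 CPM (reads of a gene scaled to a common library size, counts per 1000000) against 83.4, 93.6 and 89.0 CPM with WT. The amount of SMAD4 and the substitution therefore cannot be told apart in any comparison below.

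Cells with R272K SMAD4 had more COL1A1 and COL5A2 transcript than cells with WT SMAD4. COL1A1 rose 1.62-fold and COL5A2 1.33-fold. COL3A1 and COL5A1 also had 3 R272K libraries above all 3 WT libraries without passing the test, and COL11A1, COL1A2 and COL27A1 overlapped between groups. Of the 7 members 2 were called higher and 0 lower by edgeR's quasi-likelihood test at an adjusted p below 0.05, where 0.685% of the 15911 genes tested were called higher and 0.528% lower. At an unadjusted p below 0.05 there were 4 higher and 0 lower. Of all 15911 genes tested, 1142 were higher and 1128 lower at that threshold, 14.3% in either direction. DESeq2 called 3 higher and 0 lower (background 1.05% higher), and limma-voom 2 and 0 (0.672%). The median log2 fold change of the 7 was 0.41, beside 0.00 for all genes tested. In 4 of 7 members the groups did not overlap, each with R272K higher, as in 10.9% of all genes tested. Without WT replicate 1, 4 members were called higher, and the background was then 2.94%. With each library's trend with gene length removed 4 were called, beside 1.98% of all genes.

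COL1A1 (ENSG00000108821, chromosome 17, 50184101 to 50201632, minus strand, GRCh38), the major chain of type I collagen, measured 144, 150.0 and 151 CPM with WT SMAD4, and 228, 249.8 and 244 CPM with R272K. The groups were far apart, and the lowest R272K library exceeded the highest WT library by more than the whole WT range. The mean was 148.5 ± 3.91 CPM with WT and 240.8 ± 11.2 CPM with R272K (SD, n = 3 each), and COL1A1 rose by 0.70 on the log2 scale (SE 0.062, 95% interval 0.56 to 0.83, adjusted p = 3.51e-05). It ranked 16th by p among the genes tested. Every one of the 18 alternative fits called it, with log2 fold changes of 0.66 to 0.74, and without WT replicate 1 the value was 0.68 (adjusted p = 6.96e-13).

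COL1A2 (ENSG00000164692, chromosome 7), the partner chain of COL1A1 in ordinary type I collagen, was almost absent. Reads numbered 4, 4 and 13 in the WT libraries and 19, 6 and 15 in the R272K libraries, and the groups overlapped. COL1A1 had 2526, 2219 and 2311 reads in those WT libraries and 3478, 3754 and 3752 with R272K. COL1A2 was thus 0.158% to 0.559% of type I chain reads per WT library and 0.16% to 0.543% per R272K library. The exact binomial 95% intervals reached from 0.0431% to 0.955% over the 6 libraries and cover counting error only. Per length the share was as small, 0.156% to 0.552% of the summed TPM (transcripts per 1000000, the authors' length-scaled level) of both chains. The log2 fold change of COL1A2 was 0.97 with a 95% interval of -0.21 to 2.15 (adjusted p = 0.449), so a difference in either direction was not detectable at this depth. Leaving out WT replicate 1 or R272K replicate 1 gave 0.63, leaving out WT replicate 3 gave 1.79, and log2(TPM + 1) gave 0.24, none of them called.

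COL5A2 (ENSG00000204262, chromosome 2, 189031898 to 189225312, minus strand), a chain of type V collagen, was the most abundant member. Its WT libraries stood at 243.6, 277 and 282 CPM, and its R272K libraries at 358, 359 and 349.5 CPM. The R272K libraries lay close together, and the lowest of them was above the highest WT library. With a mean of 267.5 ± 20.8 CPM in WT and 356 ± 5.39 CPM in R272K cells, COL5A2 rose by 0.41 on the log2 scale (SE 0.067, 95% interval 0.27 to 0.56, adjusted p = 0.00782). The call rested on all 3 R272K libraries. Without R272K replicates 1, 2 or 3 the adjusted p was 0.0887, 0.0871 and 0.0765, with log2 fold changes of 0.41, 0.40 and 0.42. Calls were fewer over all genes too: these fits called 0.159%, 0.134% and 0.129% of genes tested higher, against 0.685% with all libraries. With limma on log2(TPM + 1) the adjusted p of COL5A2 was 0.0727, and 0.308% of all genes were called higher. Without WT replicate 1 the log2 fold change was 0.35 (adjusted p = 1.25e-07).

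COL5A1 (ENSG00000130635, chromosome 9, 134641803 to 134844843, plus strand), the partner of COL5A2 in type V collagen, measured 64.0, 81.4 and 79.2 CPM with WT and 93.2, 89.0 and 93.9 CPM with R272K SMAD4. WT replicate 1 was well below the rest, and the other 2 WT libraries lay below every R272K library. The log2 fold change was 0.30 (SE 0.086, 95% interval 0.11 to 0.49, adjusted p = 0.131), which was not called. Without WT replicate 1 it fell to 0.20 but was called (adjusted p = 0.0237), and with each library's trend with gene length removed it was 0.24 (adjusted p = 0.0239).

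COL3A1 (ENSG00000168542, chromosome 2, 188974373 to 189012746, plus strand), the chain of type III collagen, had 8.67, 11.3 and 10.3 CPM with WT and 15.2, 13.6 and 13.9 CPM with R272K SMAD4. All R272K libraries were above all WT libraries. Its log2 fold change of 0.50 (SE 0.120, 95% interval 0.24 to 0.76, adjusted p = 0.0665) was the largest among members that the main test did not call, apart from COL1A2. With the length trend removed it was 0.47 (adjusted p = 0.0209), and without WT replicate 1 it was 0.40 (adjusted p = 0.0475). COL3A1 and COL5A2 face each other tail to tail on chromosome 2, with 19151 bp and no listed gene between them.

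COL11A1 (ENSG00000060718, chromosome 1), a chain of type XI collagen, was scarce, with 2.62, 4.26 and 4.65 CPM in the WT libraries and 4.398, 5.72 and 4.10 CPM with R272K. The groups overlapped, and the log2 fold change was 0.31 (95% interval -0.16 to 0.79, adjusted p = 0.556). It depended on single libraries: leaving out WT replicate 1 gave 0.09, leaving out R272K replicate 2 gave 0.16 and leaving out WT replicate 3 gave 0.48, none of them called. COL27A1 (ENSG00000196739, chromosome 9, 114155537 to 114312511, plus strand) was the member with an estimate below 0. It had 35.1, 38.5 and 38.1 CPM with WT and 35.3, 36.5 and 28.5 CPM with R272K SMAD4, a log2 fold change of -0.15 (95% interval -0.36 to 0.05, adjusted p = 0.497). R272K replicate 3 alone was below all WT libraries, and without it the log2 fold change was -0.05.

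**Figure D2:**
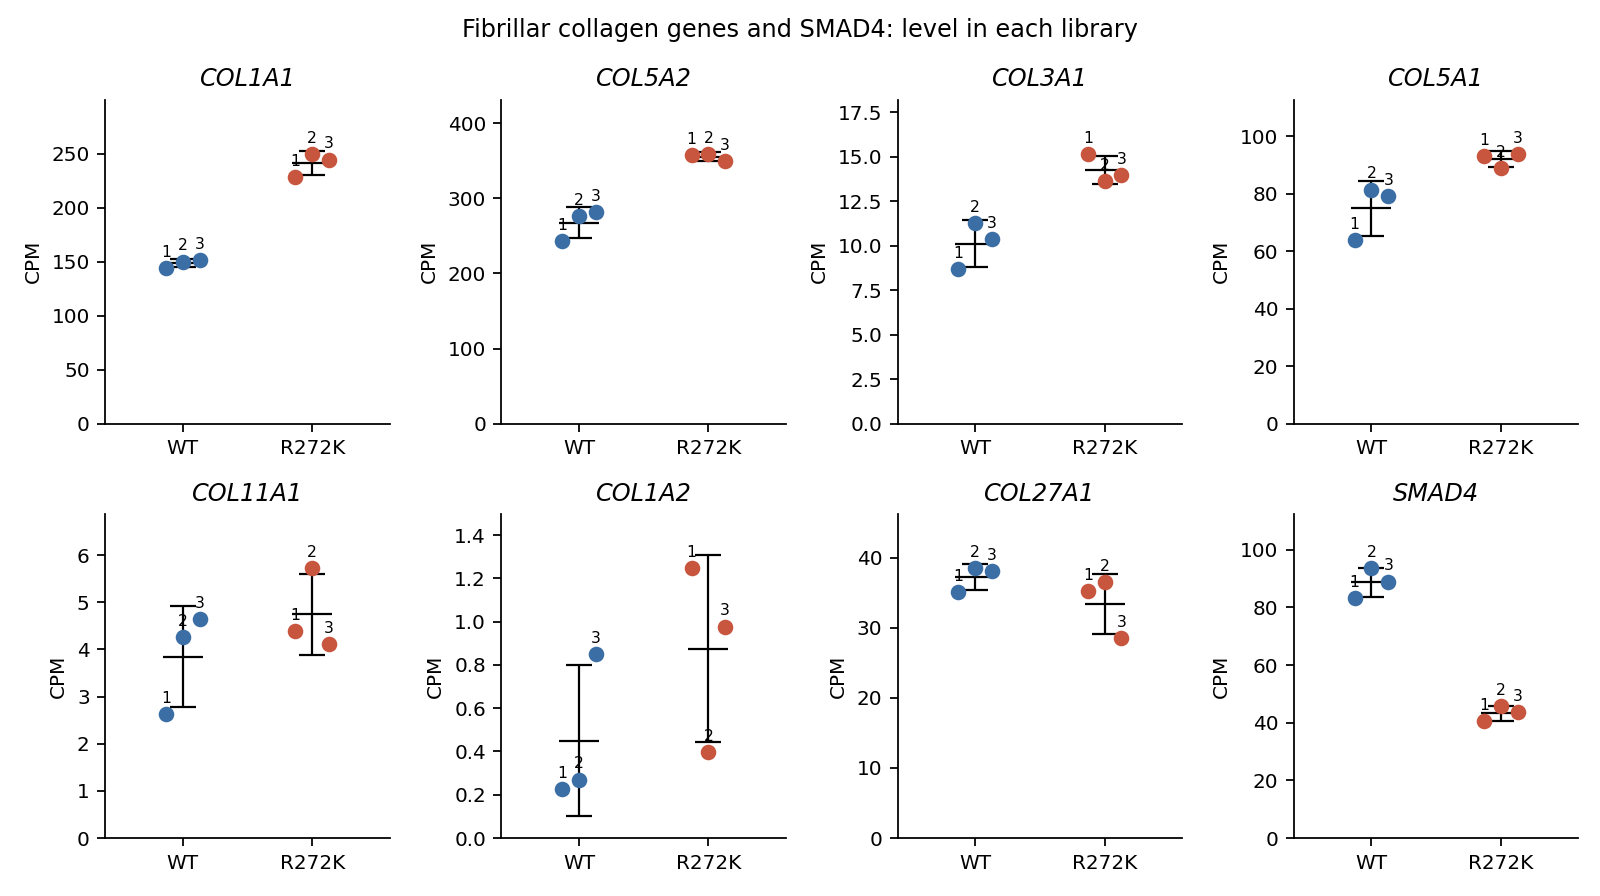
Level in CPM (vertical axes, each starting at 0) of the 7 fibrillar collagen genes and SMAD4 in each library, numbered by replicate, with the group mean and SD as black bars. COL1A1, COL5A2, COL3A1 and COL5A1 have every R272K library above every WT library, COL11A1, COL1A2 and COL27A1 overlap, and SMAD4 is lower in every R272K library.

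**Figure D3:**
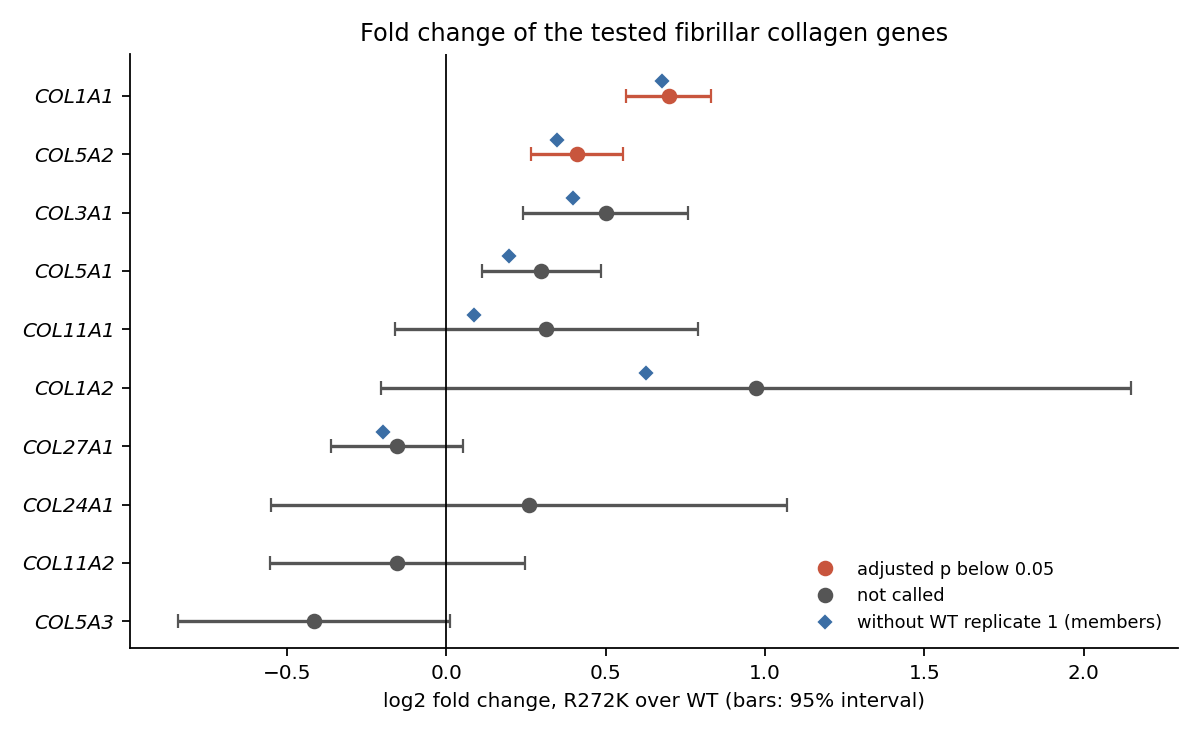
Log2 fold change of R272K over WT (horizontal axis) with its 95% interval for the 10 tested fibrillar collagen genes, red where called. Blue diamonds give the members' values without WT replicate 1, which lie below the full values for all members, from 0.68 for COL1A1 to -0.20 for COL27A1.

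Whether chains that meet in a fibril changed unequally was asked of their ratio within each library, which does not depend on the scaling between libraries. An exact two-sided permutation test of 3 against 3 libraries cannot go below p = 0.1. The log2 ratio of COL1A1 to COL5A1 reads was 1.17, 0.88 and 0.94 with WT and 1.29, 1.49 and 1.38 with R272K SMAD4, with no overlap. Its mean was higher by 0.39 (exact p = 0.1, adjusted over 3 pairs 0.2), the smallest p this design allows. For COL1A1 to COL3A1 the difference was 0.19 (WT 3.89 ± 0.162, R272K 4.08 ± 0.148, SD, n = 3 each, exact permutation p = 0.2). For COL5A1 to COL5A2 it was -0.11 (WT -1.84 ± 0.082, R272K -1.95 ± 0.059, exact permutation p = 0.2). Both of these ratios overlapped between groups. Without WT replicate 1 neither of them overlapped any longer. The type V ratio then differed by -0.15 (exact permutation p = 0.1, again the smallest possible) and COL1A1 to COL3A1 by 0.28 (exact permutation p = 0.2). COL1A1 to COL5A1 differed by 0.48 (exact permutation p = 0.1). The design therefore could not settle whether the type V chains changed unequally. Ratios with COL1A2 were not tested, since it had under 10 reads in some libraries.

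Levels can be compared between genes only per length, so TPM is used here. COL5A2 led the members with a mean of 122 ± 15.5 TPM with WT and 164 ± 0.731 TPM with R272K SMAD4 (SD, n = 3 each). COL1A1 followed with 78.1 ± 6.04 and 128 ± 6.15 TPM, then COL5A1 with 27.7 and 34.3, COL27A1 with 14.8 and 13.5, COL3A1 with 5.74 and 8.18, COL11A1 with 1.65 and 2.04, and COL1A2 with 0.238 and 0.46 TPM. In each group the libraries of neighbouring members in this order did not overlap. COL5A2 stood between 1414 and 1823 in the rank of TPM among 15911 tested genes in the WT libraries, and between 1087 and 1126 in the R272K libraries. The ranks of COL1A1 were 2445 to 2657 and 1422 to 1565. Type V chains were thus unequal, with more COL5A2 than COL5A1 transcript per length in all 6 libraries, and COL1A1 had almost no COL1A2 beside it.

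Summed over the 7 members, TPM was 217, 263 and 271 in the WT libraries and 346, 354 and 352.5 in the R272K libraries, with the WT group wider than the R272K group. Mean shares of single genes differed between the groups as well, without a test. COL1A1 was 30.8% ± 1.33 of the TPM of all 11 fibrillar collagen genes with WT and 36.2% ± 1.31 with R272K SMAD4 (SD, n = 3 each). COL27A1 was 5.84% ± 0.13 and 3.8% ± 0.456 and COL5A2 47.9% ± 0.532 and 46.3% ± 0.705. A share can fall without a fall in level, because the sum was higher with R272K. COL27A1 itself stood at 14.8 TPM with WT and 13.5 TPM with R272K and was not called (edgeR adjusted p = 0.497), and COL5A2 was called higher. These sums and shares are descriptions, without a test, and their means include WT replicate 1, the library with the lowest sum.

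**Figure D4:**
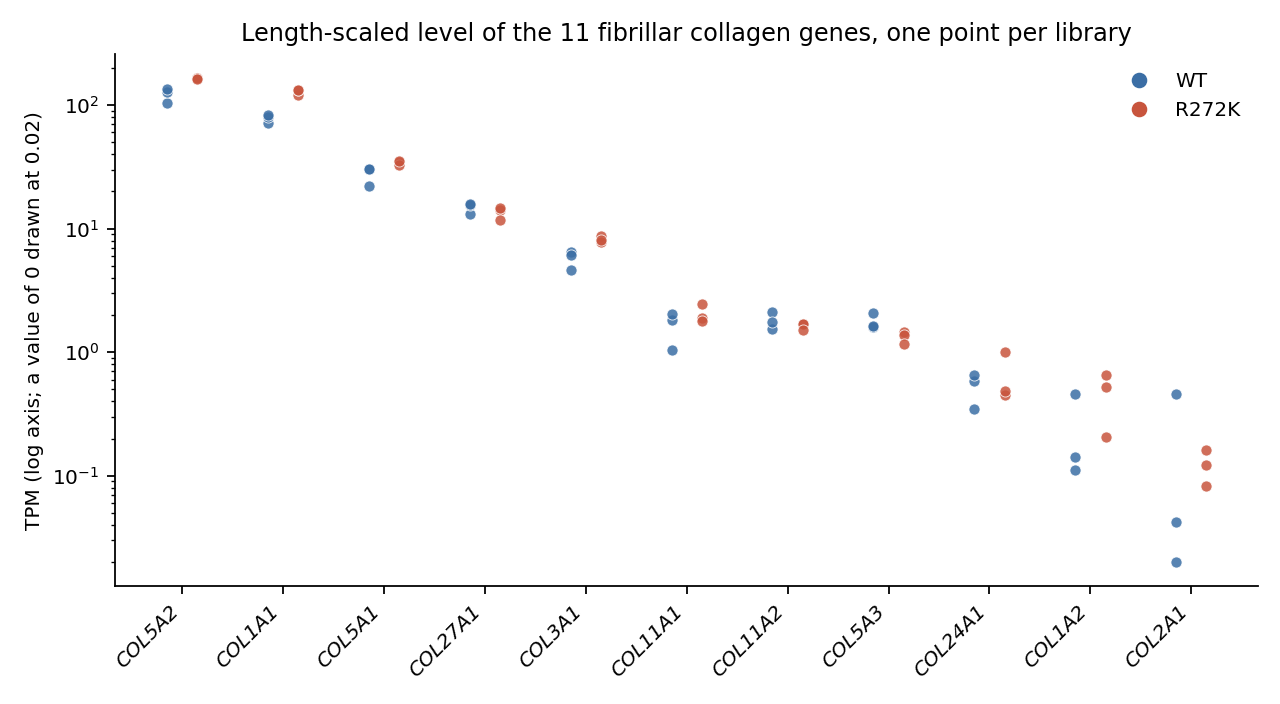
TPM on a log axis of the 11 fibrillar collagen genes in order of mean level, 1 point per library, WT blue and R272K red. COL5A2 and COL1A1 lie above 70 TPM in every library, while COL1A2 lies below 1 TPM in all of them.

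The other 4 genes of the fibrillar family were all low. COL5A3, a further type V chain, had 3.37, 3.18 and 3.996 CPM with WT and 2.89, 2.73 and 2.28 CPM with R272K SMAD4. These groups did not overlap, R272K being lower, but the log2 fold change of -0.42 was not called (95% interval -0.84 to 0.01, adjusted p = 0.364). COL11A2 stood at 3.72 and 3.33 CPM (adjusted p = 0.757) and COL24A1 at 1.16 and 1.41 CPM (adjusted p = 0.8). COL2A1, the type II collagen of cartilage, had 12 reads in the WT libraries together, 11 of them in replicate 3, and 9 in the R272K libraries, and was not tested. Of the 3 tested, 0 were called, 0 had an unadjusted p below 0.05, and DESeq2 and limma-voom called 0.

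Procollagen chains are folded, hydroxylated and exported with the help of dedicated enzymes and chaperones. Of 26 such genes, all tested, edgeR called 0 in either direction, with a median log2 fold change of 0.06. At an unadjusted p below 0.05, 5 of them were higher and 2 lower, beside 1142 and 1128 of all 15911 genes tested. DESeq2 called 1 of the 26 higher and limma-voom 0. FKBP10, a prolyl isomerase that acts on procollagen, had the smallest p, with 131.7 ± 12.3 and 162.5 ± 2.74 CPM (0.30, adjusted p = 0.0613), and was called without WT replicate 1 (0.38, adjusted p = 4.14e-07). PLOD1, a lysyl hydroxylase, had a log2 fold change of 0.19 (adjusted p = 0.22) and was called without that library too (0.23, adjusted p = 0.00335). In the same fit TRAM2, named after its values were seen, was called lower (-0.14, adjusted p = 0.036). That fit called 2.94% of all genes tested higher and 2.42% lower. PPIB, another isomerase (-0.25, adjusted p = 0.202), and LARP6, which binds a stem-loop in type I collagen mRNAs (-0.21, adjusted p = 0.238), had estimates below 0. SERPINH1, the collagen chaperone HSP47, chosen after its values were seen, stood at 165 and 153 CPM (adjusted p = 0.482).

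Among 14 tested of 16 genes that trim procollagen or cross-link fibrils, edgeR called 0 (3 higher and 0 lower at an unadjusted p below 0.05; DESeq2 and limma-voom called 0), and 12 of the 14 had an estimate above 0, as had 7906 of the 15911 genes tested. At that unadjusted threshold 1142 of all genes tested were higher and 1128 lower. The median of the list was 0.18. Those with the smallest p were the proprotein convertase gene FURIN (0.20, adjusted p = 0.151), LOXL2 of the lysyl oxidase family (0.20, adjusted p = 0.16), the transglutaminase TGM2 (0.14, adjusted p = 0.325) and BMP1, the procollagen C-proteinase (0.15, adjusted p = 0.429). FURIN and LOXL2 were called higher without WT replicate 1, when 2.94% of all genes tested were called higher.

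Genes for proteins that sit on or organise fibrils gave 2 calls higher and 0 lower among 14 tested of 22, with a median of 0.23. Over all genes tested 0.685% were called higher and 0.528% lower. At an unadjusted p below 0.05, 6 of the 14 were higher and 0 lower, beside 1142 and 1128 of all 15911 genes tested. DESeq2 and limma-voom each called 2 of the 14 higher and 0 lower. FN1, the fibronectin on which fibrils are laid down, had 52.0, 63.5 and 67.3 CPM in the WT and 90.8, 87.0 and 95.4 CPM in the R272K libraries. It rose by a log2 fold change of 0.58 (adjusted p = 0.0054), a call lost without R272K replicates 1 (adjusted p = 0.0533) or 3 (0.0834) and on the TPM values. COL9A3, a chain of the fibril-associated type IX collagen, rose from 7.09 ± 1.42 to 12.4 ± 0.502 CPM (0.80, adjusted p = 0.0143), a call lost without WT replicate 2 (adjusted p = 0.0546) or without R272K replicates 1, 2 or 3 (adjusted p = 0.0869, 0.103 and 0.0916). In the fits without WT replicate 2 or an R272K library, 0.129% to 0.244% of all genes tested were called higher. The tenascin gene TNC (0.34, adjusted p = 0.133) and COL6A3 (0.77, adjusted p = 0.204), a chain of beaded-filament type VI collagen, were not called. Without WT replicate 1 the log2 fold changes were 0.48 for FN1 (adjusted p = 3.58e-07) and 0.93 for COL9A3 (adjusted p = 4.87e-05), COL6A1 was also called higher (0.27, adjusted p = 0.0213) and THBS1 lower (-0.15, adjusted p = 0.0477), both named after their values were seen. That fit called 2.94% of all genes tested higher and 2.42% lower. Small leucine-rich proteoglycans that coat fibrils were close to absent, with 15 reads of DCN and 34 of LUM over all 6 libraries.

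Collagen receptors gave 0 calls among 9 tested of 11 with edgeR, DESeq2 and limma-voom, with a median of 0.10. At an unadjusted p below 0.05, 3 of them were higher and 0 lower, beside 1142 and 1128 of all 15911 genes tested. DDR1, a receptor tyrosine kinase for collagen, had a log2 fold change of 0.19 (adjusted p = 0.167), the endocytic receptor MRC2 0.24 (0.184), the shared integrin subunit ITGB1 0.17 (0.226) and ITGA10 0.17 (0.648). With WT replicate 1 left out, DDR1 (0.20, adjusted p = 0.00434) and ITGB1 (0.13, adjusted p = 0.0188) were called higher, as were 2.94% of all genes tested. With the length trend removed DDR1 was also called (adjusted p = 0.0473), and 1.98% of all genes were called higher.

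Of 10 tested of 13 genes for proteases that cut or clear collagen and their inhibitors, edgeR called 2 lower and 0 higher. Their median was 0.00. Over all genes tested 0.528% were called lower and 0.685% higher. At an unadjusted p below 0.05, 3 of the 10 were lower and 0 higher, beside 1128 and 1142 of all 15911 genes tested. DESeq2 and limma-voom each called 2 of the 10 lower and 0 higher. MMP1, the interstitial collagenase that cleaves the triple helix of types I and III, had 62.2, 49.5 and 54.9 CPM with WT and 23.0, 24.4 and 25.1 CPM with R272K SMAD4. The WT libraries were all far above the R272K libraries. MMP1 fell by 1.202 on the log2 scale (SE 0.092, adjusted p = 9.72e-06) and was called in every alternative fit. CTSL, which encodes the lysosomal protease cathepsin L, fell from 137.5 ± 9.92 to 102 ± 7.41 CPM (-0.43, adjusted p = 0.0136), a call lost without WT replicate 2 (adjusted p = 0.0695) or R272K replicates 1 or 3 (0.135 and 0.152). In those fits 0.268%, 0.202% and 0.208% of all genes tested were called lower. TIMP1, an inhibitor of metalloproteinases (-0.27, adjusted p = 0.182), and MMP14, a membrane-bound collagenase (0.29, adjusted p = 0.405), were not called. With WT replicate 1 left out MMP1 was at -1.11 (adjusted p = 6.96e-13) and CTSL at -0.37 (adjusted p = 1.48e-05).

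Transcription factors described at fibrillar collagen promoters gave 0 calls among 20 tested of 22 with edgeR and limma-voom, with a median of 0.03. DESeq2 called 1 higher and 1 lower. At an unadjusted p below 0.05, 2 of the 20 were higher and 2 lower, beside 1142 and 1128 of all 15911 genes tested. CEBPB (-0.33, adjusted p = 0.0515) and KLF4 (-0.31, adjusted p = 0.0922) had estimates below 0, and SOX9, an activator of cartilage collagens (0.24, adjusted p = 0.0613), and RFX5, described as a repressor of COL1A2 (0.26, adjusted p = 0.0965), above 0. All 4 were called without WT replicate 1, when 2.94% of all genes tested were called higher and 2.42% lower. SMAD3, the partner of SMAD4 chosen after its values were seen, stood at 487 and 526 CPM (adjusted p = 0.439).

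**Figure D5:**
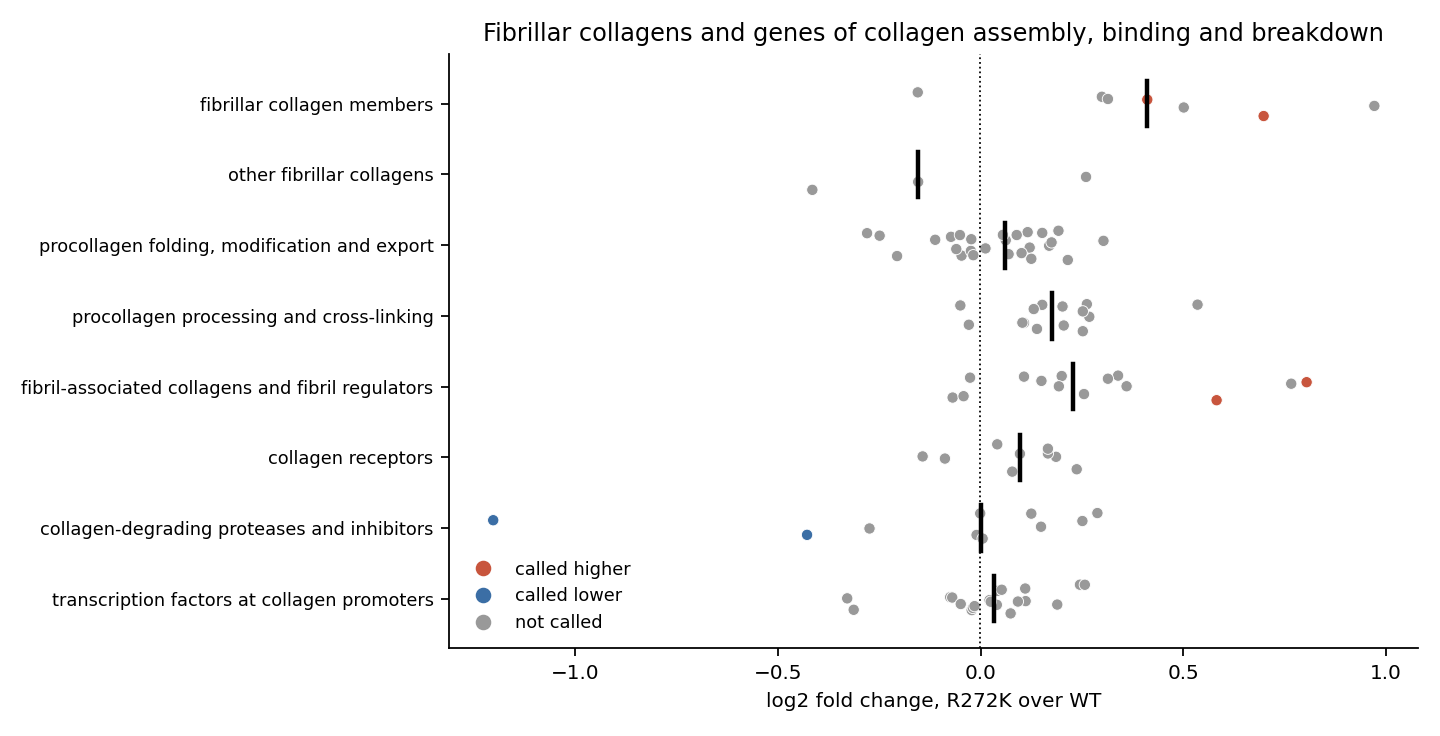
Log2 fold change of R272K over WT (horizontal axis) for each tested gene of the fibrillar collagens and of 7 related lists, with list medians as black bars and the median of all genes tested as a dotted line. The 7 collagens have the highest median, 0.41, and the lowest single value is MMP1 among the proteases. The family and the lists were chosen with earlier results of these data known.

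The 5 genes whose profile over the 6 libraries was most like that of COL1A1 were PFKFB4, SREBF1, SCD, LINC02575 and SLC12A2. Likeness was the root mean square difference in log2 CPM after centring each gene on its own mean, over 9732 other genes with at least 10 CPM. It was 0.0526 for PFKFB4 and 0.0807 to 0.0877 for the other 4. They were chosen for this likeness, so their own changes are no further evidence. COL5A2 came 46th in that order (0.154), COL3A1 60th (0.16), COL5A1 198th (0.222) and COL27A1 8574th (0.447).

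Genes that overlap a member could add reads to it or take reads from it, and the strand setting of the counting was not known. The largest overlapping gene by share was COL5A1-AS1, with 21 reads over the 6 libraries against 7733 for COL5A1 (0.272%). On COL1A1 lay AC015909.1 with 22 reads (0.122%). No overlapping gene reached that share on the other 5 members.

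The stretch just before the start is printed for COL5A1 and COL27A1, because their RefSeq starts equal the gene starts in the deposited table. Both lie on chromosome 9, with estimates on either side of 0, and edgeR called neither (adjusted p = 0.131 and 0.497). The RefSeq promoter table (GRCh38.p14) matched 3 of the 7 members, these and COL11A1. It held 2 entries for COL5A1, of which the first was used. Each stretch holds the 250 bases before the start, plus strand, 5′ to 3′, with GC boxes (GGGCGG on either strand) in capitals, at chr9:134641553-134641802 for COL5A1 and chr9:114155287-114155536 for COL27A1.
COL5A1: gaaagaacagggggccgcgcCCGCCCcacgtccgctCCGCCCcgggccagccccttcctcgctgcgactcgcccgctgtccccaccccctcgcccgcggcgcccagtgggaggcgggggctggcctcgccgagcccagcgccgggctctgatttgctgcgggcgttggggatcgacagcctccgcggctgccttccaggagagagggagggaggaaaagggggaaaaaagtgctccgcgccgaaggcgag
COL27A1: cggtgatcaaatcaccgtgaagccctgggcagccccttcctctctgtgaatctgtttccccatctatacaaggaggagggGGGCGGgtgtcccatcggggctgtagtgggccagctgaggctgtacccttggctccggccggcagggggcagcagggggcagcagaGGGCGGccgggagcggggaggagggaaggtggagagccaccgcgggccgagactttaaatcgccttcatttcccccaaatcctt
Both are rich in G and C, at 74% and 64.4%, where the median of 27305 promoters was 58%. Each holds 2 GC boxes, which 42.3% of those promoters have at least once. The SMAD-binding letters GGCGC, searched on both strands, occur 5 times in COL5A1, 2 of them overlapping, and 0 times in COL27A1 and COL11A1, and 44.2% of promoters hold them. GTCTG occurs in neither printed stretch and once in COL11A1 (37.8% of promoters). CCAAT occurs once in COL11A1 alone (33%), and TATAAA in none of the 3 (11.1%). These matches describe letters and were not tested as binding sites.

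Fibroblasts and stellate cells are the usual makers of these collagens, and their markers were low in both groups. The 12 markers summed to 12.9 to 13.8 CPM in the WT and 12.8 to 13.2 CPM in the R272K libraries, and 3 of them could be tested, of which edgeR called 0 (0 at an unadjusted p below 0.05). DPT was at 0 reads everywhere, DCN had 15 and POSTN 5 over 6 libraries, and the most abundant, RGS5, stood at 5.32 CPM. Endothelial markers summed to 5.08 to 7.67 CPM with WT and 5.34 to 6.39 CPM with R272K, nearly all from KDR, and leukocyte markers to at most 0.459 CPM, with PTPRC the most abundant at 0.166 CPM. The epithelial keratins KRT8, at 2043 to 2895 CPM, and KRT18 were high, and KRT19 lay between 127.5 and 164.1 CPM. The keratin KRT7 stood below 7 CPM, as did EPCAM and CDH1. KRT19 (-0.10, edgeR adjusted p = 0.633) and KRT7 (-0.13, edgeR adjusted p = 0.866) had estimates below 0, and the remaining 4 genes of this list above 0. Of the 6 epithelial genes edgeR called CDH1 alone (1.33, adjusted p = 0.00174). KRT8 (0.32, adjusted p = 0.0661) was called as well by DESeq2 (adjusted p = 0.0113), and without WT replicate 1 KRT8 (0.42, adjusted p = 4.6e-11) and KRT18 (0.21, adjusted p = 0.000919) were called higher. These 6 summed to 3029 to 3772 CPM in the WT and 3804 to 4113 CPM in the R272K libraries, and their part in the collagen differences was not tested. Being bulk RNA, the data cannot tell a larger number of collagen-expressing cells from more transcript per cell.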

How the data were processed

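The submitters' processing notes name the genome build GRCh38 and, among tools, HTSeq 0.10.0, SAMtools, HISAT2 2.1.0 and fastp 0.23.0. Strand mode and annotation are not given in the sources. For each of 6 libraries the authors deposited read counts by symbol, and a length-scaled signal named TPM. The 62710 lines hold 60835 symbols; repeated lines carried the same values and each symbol was used once. Genes passing edgeR's expression filter (minimum count 10, minimum total 15) were scaled by TMM and tested together with edgeR's robust quasi-likelihood test on all 6 libraries in a model of group alone. Benjamini-Hochberg adjustment ran over all 15911 genes, and SE is the fold change divided by the square root of F. The test was also run on counts simulated from the model's own estimates of spread. That simulation held no outlying library and no length trend, so it does not bear on WT replicate 1.

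The rule for the members uses no measured value, but the family and the lists were chosen with earlier results of these data known. Named genes were the 7 members, SMAD4, up to 4 genes per list by smallest p, the most abundant marker of other cell types and the 5 genes most like COL1A1. Relative length came from the ratio of count to TPM. Exons came from GENCODE 29. A planned description of the proteins was not run. Within groups, every pair of libraries differed beyond counting noise (chi-square over its degrees of freedom at least 1.83). Pairs with WT replicate 1 were furthest apart, at 11.3 and 15.6, and the remaining pairs stood at 1.83 to 2.92. Software was edgeR 4.0.16, DESeq2 1.42.0 and limma 3.58.1 under R 4.3.3, with pandas 2.3.3 and matplotlib 3.10.9 under Python 3.11.15.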

Additional observations from a re-analysis of the deposited data

How the results depend on the processing

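All 7 members kept the sign of their estimate in every alternative fit that gave a value, and members called lower stayed at 0 in each. Members called higher numbered 4 with no filter on low counts, where 0.62% of all genes tested were called higher. They numbered 4 with the length trend removed (1.98% of all genes). They numbered 1 with limma on log2(TPM + 1) (0.308%) or log2(TPM + 0.1) (0.295%). When 1 library was left out they numbered 1 to 4 (0.129% to 2.94%). COL3A1 was called with no filter (0.50), DESeq2 (0.50, adjusted p = 0.05, just under the threshold) and the length trend removed (0.47), and COL5A1 with no filter (0.30) and the length trend removed (0.24). COL5A2 lost its call on log2(TPM + 1) (0.43) and log2(TPM + 0.1) (0.43). When 1 library was left out, log2 fold changes ran from 0.40 to 0.58 for COL3A1, 0.20 to 0.36 for COL5A1, 0.35 to 0.45 for COL5A2, 0.63 to 1.79 for COL1A2 and 0.09 to 0.48 for COL11A1. Over all genes, 227 of 36623 tested were higher and 247 lower with no filter. With DESeq2, 145 of 13751 were higher and 130 lower. Of 15911 genes tested, 315 were higher and 299 lower with the length trend removed. The counts were 49 and 55 of 15911 on log2(TPM + 1), and 47 and 54 on log2(TPM + 0.1). When 1 library was left out, 21 to 480 were higher and 33 to 395 lower, of 16311 to 16408 tested. Genes of the 7 related lists called lower were 5 with no filter, those called higher 4 with DESeq2, and 8 higher and 4 lower with the length trend removed; leaving out 1 library gave 0 to 11 higher and 1 to 6 lower. The cause of these changes was not tested. The replicate numbers did not pair the libraries (correlations of same-numbered deviations -0.065, -0.007 and -0.012, and no library correlated best with its own number). With the replicate number as a block, the calls were 2 members higher, 138 genes higher and 124 lower over all genes, and COL1A1 was at 0.70. Depth limits COL2A1, COL1A2 and COL24A1 most, the fibrillar collagen genes with the fewest reads.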
